A study of Mus musculus with 7 samples.

Results

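Male mouse kidney expresses a set of genes under the control of testosterone. Testosterone and dihydrotestosterone change the transcription of their target genes, and in mouse kidney the response is strongest in the epithelium of the proximal tubule. Kap, the kidney androgen-regulated protein gene, and Gusb, which encodes the lysosomal enzyme beta-glucuronidase, are classical examples, and cytochrome P450, steroid dehydrogenase and organic anion transporter genes belong to the same response. The 8 genes described here (Kap, Gusb, Cyp7b1, Cyp2j13, Cyp2d9, Hsd17b11, Slco1a1 and Slc22a30) were picked by symbol from this knowledge. The choice was made with earlier results of these data known. All 8 were found among 42256 gene identifiers, and all 8 passed the filter on low counts that left 17964 genes for testing.

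Whole kidney RNA was sequenced from 7 mice, all adult males of mixed 129S1/Sv x C57BL/6 stock. The labels give 3 mice as CDH11+/+ and 4 as CDH11-/-, a knockout of the gene of the adhesion protein cadherin-11, and do not describe the allele. Every mouse of both groups had lost a kidney and had received angiotensin II by osmotic pump at 800 ng/kg/min, and its remaining kidney was taken 4 weeks after surgery. No library came from an uninjured, castrated, female or androgen-treated mouse, so the androgen dependence of the 8 genes is background and was not measured.

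Libraries held 72087906 to 84786351 counts, and levels are given as CPM, counts relative to library sizes scaled by TMM (the trimmed mean of M-values). Cdh11, on chromosome 8, stood at 6.79, 4.52 and 10.8 CPM in the libraries labelled CDH11+/+ and at 11.3, 9.56, 11.6 and 11.0 CPM in those labelled CDH11-/- (adjusted p = 0.140, edgeR). The transcript was not lower in the libraries labelled knockout, so groups are called wild-type-labelled and knockout-labelled throughout. Of the tested genes, 29.7% were called at an adjusted p under 0.05, 16.8% higher and 12.9% lower in the knockout-labelled group. The summed Y-linked genes Ddx3y, Eif2s3y, Kdm5d and Uty were at 64.7 CPM in wild-type-labelled replicate 3 and between 111 and 145 CPM in the other libraries. Xist, the X-inactivation RNA of female cells, was under 1 CPM in every library. At that low level it was called lower in the knockout-labelled group (log2 fold change -1.69, edgeR), though the groups overlapped. The call was lost with limma-voom and when wild-type-labelled replicate 2 or 3 was left out.

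The 3 promoter windows below are shown because they belong to the most abundant gene of the set (Kap), the one with the largest difference between groups (Slco1a1) and the one with almost none (Cyp2d9). Each is the 250 bases before the RefSeq start of the gene on GRCm38.p6, read on the gene's own strand, with the first TATAA in the last 50 bases in capitals.
Kap, chr6:133853668-133853917, minus strand: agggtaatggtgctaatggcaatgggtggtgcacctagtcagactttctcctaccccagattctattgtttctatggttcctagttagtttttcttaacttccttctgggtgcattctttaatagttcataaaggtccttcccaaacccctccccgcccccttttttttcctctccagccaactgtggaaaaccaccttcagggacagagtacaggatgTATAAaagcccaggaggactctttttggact
Slco1a1, chr6:141946963-141947212, minus strand: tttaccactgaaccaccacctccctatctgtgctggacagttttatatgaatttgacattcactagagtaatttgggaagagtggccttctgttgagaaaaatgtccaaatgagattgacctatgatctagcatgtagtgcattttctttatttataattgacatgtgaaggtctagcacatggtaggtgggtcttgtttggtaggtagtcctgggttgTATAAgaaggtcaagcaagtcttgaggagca
Cyp2d9, chr15:82452127-82452376, plus strand: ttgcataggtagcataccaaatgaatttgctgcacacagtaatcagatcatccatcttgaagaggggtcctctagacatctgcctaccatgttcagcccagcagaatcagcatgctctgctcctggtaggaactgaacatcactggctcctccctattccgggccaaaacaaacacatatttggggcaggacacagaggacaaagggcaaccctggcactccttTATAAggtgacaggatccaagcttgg

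The letters TATAA, on the gene's strand within 50 bases of the start, were present in 3 of the 7 genes that had a window in the RefSeq table and in 4.93% of all 32851 windows. They began 31 bases before the start in Kap and Slco1a1 and 26 bases before it in Cyp2d9, so the pair that rose and the gene that did not share the feature. This motif was chosen after the windows were seen. The androgen response element was searched on both strands as the palindrome of AGAACA, any 3 bases and TGTTCT, and as AGAACA alone, its core, which any match of the palindrome holds too. Neither matched in any of the 7 genes, while AGAACA matched in 16.1% and the palindrome in 3 of all windows. A core of the site of the tubular factor HNF4 (CAAAGTCCA) also had no match in the 7 genes, against 0.384% of all windows. A match or its absence describes these letters in this window only.

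Of the 8 genes, 7 rose in the knockout-labelled libraries, 0 fell and Cyp2d9 was not called, where 16.8% of all tested genes were called higher. An unadjusted p under 0.05 gave the same 7 and 0 (22.1% of all tested genes were higher by that rule), as did DESeq2 (17.9%) and limma-voom (17.8%). For the same 7 genes the highest wild-type-labelled value lay below the lowest knockout-labelled one, a separation in that direction found in 21.9% of the tested genes. The median log2 fold change of the 8 was 1.64, against -0.01 over all tested genes. All 7 rises were at least 1 on the log2 scale, a size that 4.35% of tested genes reached. The members were chosen with earlier results of these data known, and whole tissue cannot tell fewer cells of a type from less RNA per cell.

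**Figure D1:**
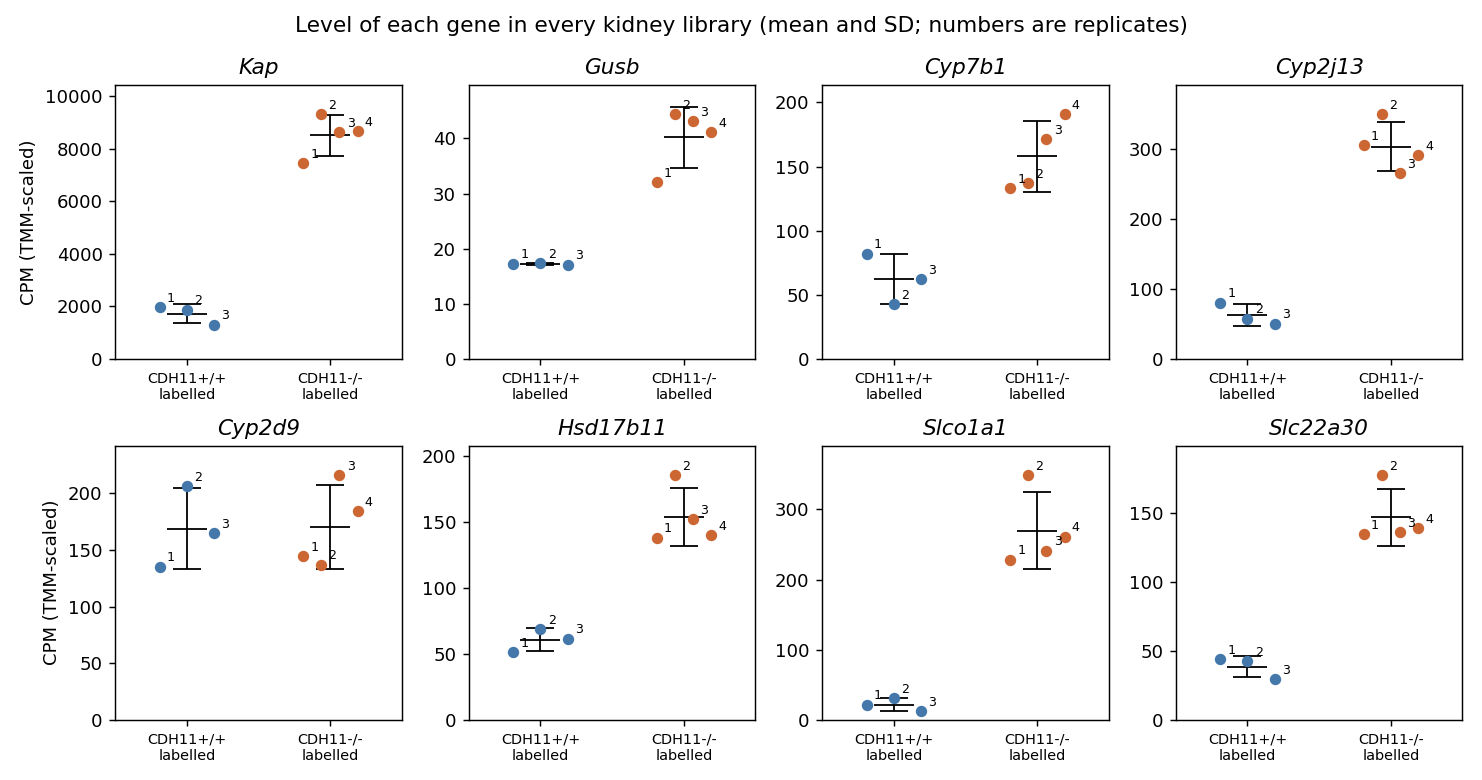
Level of each of the 8 genes in every library, in TMM-scaled CPM on linear axes that start at 0. Points are libraries with their replicate number, and the bar with whiskers is the mean and SD of each labelled group. The groups are apart in 7 panels and overlap in the panel of Cyp2d9.

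Kap encodes a small protein made by proximal tubule cells and was the most abundant gene of the set (ENSMUSG00000032758, mm10 chromosome 6, 133849851 to 133853762, minus strand). Its level was 1978, 1875 and 1301 CPM in the wild-type-labelled group (replicates 1, 2 and 3, in the order kept throughout) and 7460.3, 9317, 8636 and 8665 CPM in the knockout-labelled group (replicates 1, 2, 3 and 4). The lowest knockout-labelled library was more than 3 times the highest wild-type-labelled one. Kap took between 0.138% and 0.194% of the counts of a wild-type-labelled library and between 0.765% and 0.925% in a knockout-labelled one. By mean level it moved from rank 36 to rank 9 among all genes. The fold change was 4.96 (95% interval 3.86 to 6.37, adjusted p = 4.79e-05, edgeR), and 0.507% of tested genes had a log2 fold change as high.

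Gusb encodes beta-glucuronidase, which removes glucuronic acid from conjugates and glycosaminoglycans in the lysosome (ENSMUSG00000025534, chromosome 5, 129989011 to 130003049, minus strand). It was the gene of the set that varied least in the wild-type-labelled libraries, at 17.3, 17.4 and 17.1 CPM. The knockout-labelled libraries held 32.1, 44.4, 43.2 and 41.1 CPM, with replicate 1 below the other 3 and all 4 above the wild-type-labelled group. Gusb rose 2.33-fold (95% interval 1.97 to 2.76, adjusted p = 0.000123, edgeR). Its interval lay below that of Kap.

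The set holds 4 enzymes that act on steroids, sterols or fatty acids. Cyp7b1 encodes oxysterol 7-alpha-hydroxylase, which hydroxylates oxysterols and some steroids (ENSMUSG00000039519, chromosome 3, 18071950 to 18243338, minus strand). It stood at 82.2, 42.9 and 62.2 CPM in the wild-type-labelled group and at 133, 137, 171 and 191 CPM in the knockout-labelled libraries. It rose 2.53-fold (95% interval 1.74 to 3.69, adjusted p = 0.00487, edgeR). Among the 7 genes that rose it had the largest adjusted p.

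Hsd17b11 encodes a short-chain 17-beta-hydroxysteroid dehydrogenase that oxidises androstanediol and is found on lipid droplets (ENSMUSG00000029311, chromosome 5, 103989762 to 104021919, minus strand). Its values were 51.3, 68.8 and 61.4 CPM against 138, 185, 152 and 140 CPM. Every knockout-labelled library was above every wild-type-labelled one, and the rise was 2.54-fold (95% interval 2.06 to 3.13, adjusted p = 0.000247, edgeR).

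Cyp2j13 encodes a cytochrome P450 of a family that oxidises arachidonic acid (ENSMUSG00000028571, chromosome 4, 96027534 to 96077546, minus strand). It was at 80.5, 57.7 and 50.5 CPM in the wild-type-labelled group and at 305, 349, 265 and 291 CPM in the knockout-labelled ones. The rise of 4.81-fold (95% interval 3.67 to 6.31, adjusted p = 9.70e-05, edgeR) was close in size to that of Kap.

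Cyp2d9 encodes a P450 known in mouse liver as a male-specific testosterone 16-alpha-hydroxylase (ENSMUSG00000068086, chromosome 15, 82433437 to 82456845, plus strand). Its values were 135, 206 and 165 CPM against 144, 137, 216 and 184 CPM, and the groups overlapped along almost their whole range. The fold change was 1.01 (95% interval 0.743 to 1.37, adjusted p = 0.961, edgeR). The interval reached no value as high as the lower bound of any of the other 7 genes. Of the 31-base words in its transcripts, 34.8% also occur in transcripts of other genes and 14.1% in Cyp2d12, so the division of reads between them is uncertain. Cyp2d9 and Cyp2d12 together were at 233 ± 32.5 CPM (SD, n = 3) and 291 ± 71.8 CPM (SD, n = 4), a difference within the spread (exact 2-sided permutation p = 0.229, where 3 against 4 libraries cannot go below 0.0571). With all the listed Cyp2d relatives the sum was 364 ± 67.9 and 352 ± 76.5 CPM (SD, n = 3 and 4), 0.964 times the wild-type-labelled level and also within the spread (exact permutation p = 0.857).

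The remaining members, Slco1a1 and Slc22a30, encode solute carriers of the cell membrane. Slco1a1 encodes an organic anion transporting polypeptide that takes up steroid conjugates and bile salts (ENSMUSG00000041698, chromosome 6, 141907282 to 141946962, minus strand). It stood at 21.6, 30.5 and 12.0 CPM in the wild-type-labelled group and at 228, 349, 241 and 261 CPM in the knockout-labelled ones. The rise was the largest of the set, 12.7-fold, and also the least precise (95% interval 7.05 to 22.7, adjusted p = 0.000659, edgeR). The lower bound of its interval lay above the upper bounds of the other 7 genes.

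Slc22a30 belongs to the organic anion transporter family (ENSMUSG00000052562, chromosome 19, 8335371 to 8405111, minus strand). It was at 43.9, 42.3 and 29.6 CPM against 135, 178, 136 and 139 CPM, with 3 of the knockout-labelled libraries nearly level and replicate 2 above them. The rise was 3.80-fold (95% interval 2.94 to 4.92, adjusted p = 0.000158, edgeR). Slc22a28 shares 39.6% of the 31-base words of Slc22a30, so the separate values of the pair are uncertain. Their sum was 66.2 ± 12.1 CPM (SD, n = 3) in the wild-type-labelled libraries. In the knockout-labelled libraries it was 272 ± 36.2 CPM (SD, n = 4), without overlap. A rise of either gene would raise the sum, so the sum cannot settle the separate rise of Slc22a30.

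The members lie on chromosomes 3, 4, 5, 6, 15 and 19, and none shares chromosome 8 with Cdh11. Kap, Cyp7b1 and Hsd17b11 share no 31-base word with another gene's transcripts, and Gusb, Cyp2j13 and Slco1a1 share 0.501%, 2.59% and 4.02% of theirs.

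**Figure D2:**
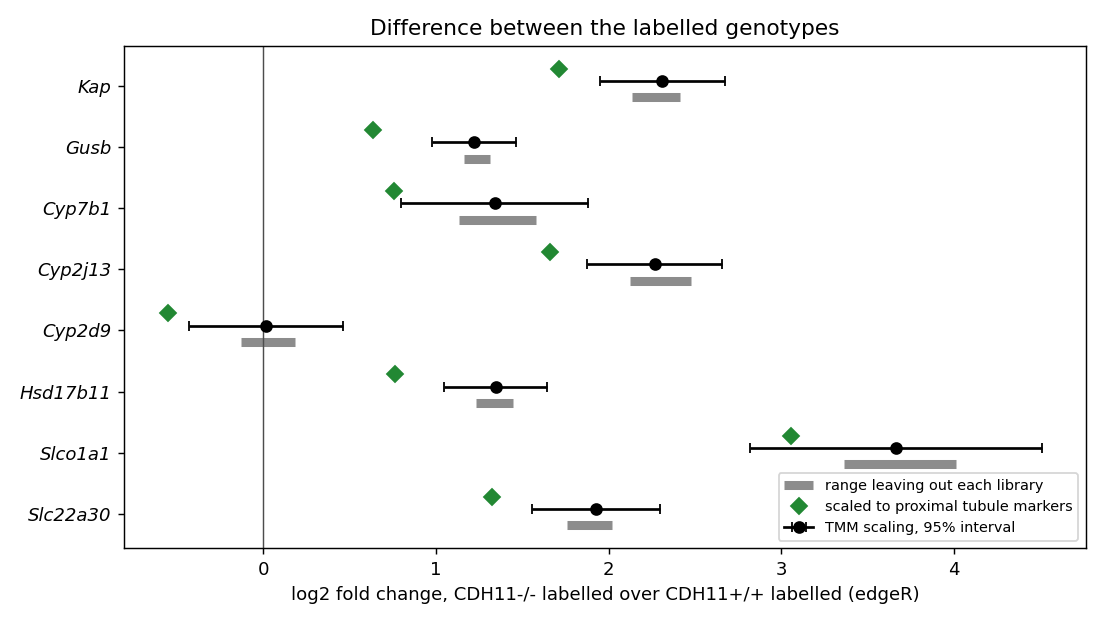
Difference of each gene between the labelled groups, as log2 fold change of CDH11-/- over CDH11+/+ (edgeR). Black points with whiskers are the TMM-scaled fit with its 95% interval, grey bars the range over fits that each leave out 1 library, and green diamonds the fit scaled to the counts of 18 proximal tubule markers. All values lie above 0 for 7 genes, and for Cyp2d9 the estimates stand on both sides of 0.

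Levels can be set side by side only per length, and as CPM per kilobase of annotated exon the order of the genes differed between the groups. Kap led both, at 2430 ± 516 in the wild-type-labelled and 12050.2 ± 1093 in the knockout-labelled libraries (SD, n = 3 and 4). In the wild-type-labelled group Cyp2d9 was next with 63.5 ± 13.4 CPM per kilobase (SD, n = 3) and did not overlap Cyp7b1 below it (28.8 ± 9.07). In the knockout-labelled group Cyp2d9 (64.1 ± 13.9, SD, n = 4) came after Kap, Cyp7b1 (73.0 ± 12.8) and Cyp2j13 (64.5 ± 7.49). From Cyp7b1 down to Slc22a30 each gene of that group overlapped the next, so this order is within the spread between libraries. Gusb was last in both groups, at 3.80 ± 0.0290 and 8.83 ± 1.23 CPM per kilobase. Slco1a1 was at 4.04 ± 1.75 CPM per kilobase in the wild-type-labelled group, where it overlapped Gusb, and at 51.2 ± 10.3 in the other, where it did not.

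Within a group, the genes did not all vary together. Knockout-labelled replicate 2 was the highest of its group for 6 of the 8 genes and replicate 1 the lowest for 6. Wild-type-labelled replicate 3 was the lowest of its group for 5 genes, and its difference from the group mean on the log2 scale was -0.73 for Slco1a1, -0.38 for Kap and -0.36 for Slc22a30. That library also had the low Y-linked sum given above, and its proximal tubule marker sum was the highest of the group (13799 CPM against 11824 and 12672); the part of either in these values was not tested. With group means subtracted, the correlation of Kap over the 7 libraries was 0.91 with Slc22a30, 0.87 with Slco1a1 and 0.68 with Cyp2j13, but 0.11 with Hsd17b11 and 0.10 with Cyp7b1. Over all 28 pairs of the 8 genes it ranged from -0.72 (Cyp2j13 with Cyp2d9) to 0.91, with a median of 0.25. These correlations describe 7 libraries that share their depth scaling.

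**Figure D3:**
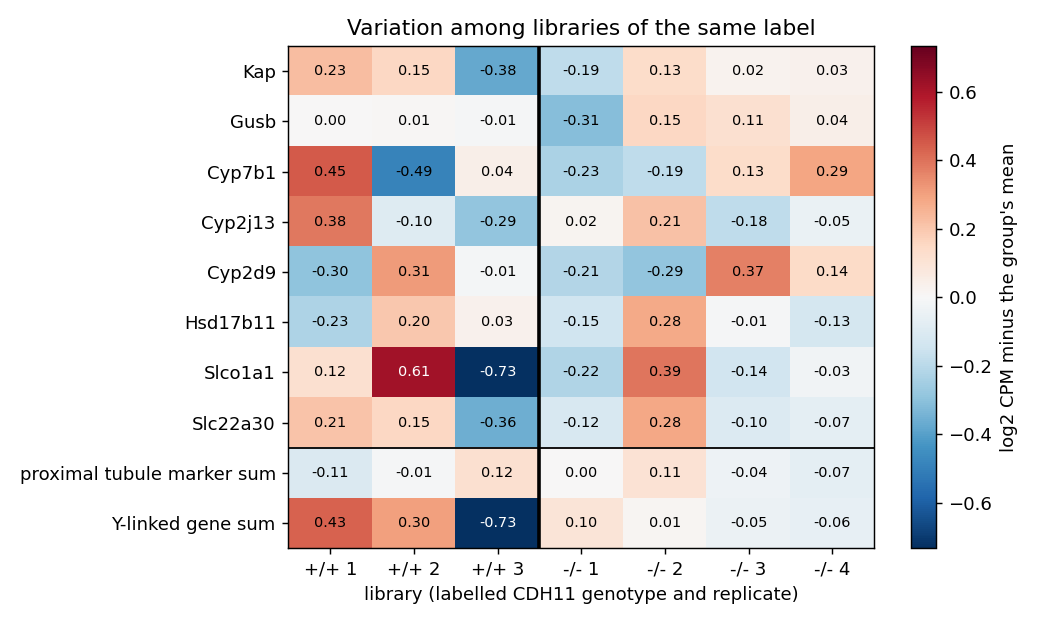
Deviation of each gene from the mean of its labelled group in every library, on the log2 CPM scale, with the log2 sums of the 18 proximal tubule markers and of the 4 Y-linked genes below the line. Red is above and blue below the group mean. The column of wild-type-labelled replicate 3 is blue for Kap, Slco1a1, Slc22a30 and the Y-linked sum and red for the proximal tubule sum.

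The proximal tubule is known as the main site of the androgen response in mouse kidney, so markers of that segment were set beside them. Of 18 proximal tubule markers 14 rose and 0 fell, where 16.8% of all tested genes were called higher and 12.9% lower. An unadjusted p under 0.05 gave 15 and 0 (22.1% of all tested genes were higher), and DESeq2 14 and 0 (17.9%). The median log2 fold change of the 18 was 0.74. Ggt1, the gamma-glutamyl transferase of the brush border, rose 1.90-fold and the phosphate transporter gene Slc34a1 2.20-fold (largest adjusted p = 0.000433, edgeR). The markers did not move alike. Gatm rose 3.74-fold and Lrp2 1.30-fold, while 4 markers were not called, among them Cubn (1.13-fold) and Hnf4a (0.911-fold). The summed markers were at 11824 to 13799 CPM in the wild-type-labelled group and 18124 to 20520.1 CPM in the knockout-labelled libraries. Their part in the results was not tested beyond the values that follow. With libraries scaled to these markers instead of TMM, the median log2 fold change of all genes moved from -0.01 to -0.59. On that scale the same 7 genes were called higher, where 3.11% of all tested genes were, and Cyp2d9 was called lower (log2 fold change -0.55, adjusted p = 0.0424, edgeR), where 67.6% of all tested genes were, and 0.04 above the median of all genes. The log2 fold change on that scale was 3.05 for Slco1a1, 1.71 for Kap, 1.66 for Cyp2j13, 1.33 for Slc22a30, 0.76 for Hsd17b11 and Cyp7b1, and 0.64 for Gusb. For Cyp7b1 the adjusted p was 0.0492.

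Counts of each gene per 1000 counts of the same markers give that comparison library by library. Kap stood at 167, 148 and 94.2 in the wild-type-labelled and at 391, 454, 465 and 478 in the knockout-labelled libraries, and Slco1a1 at 1.83, 2.40 and 0.867 against 12.0, 17.0, 13.0 and 14.4. The groups did not overlap for 6 genes (exact 2-sided permutation p = 0.0571 each, the smallest that 3 against 4 libraries allow). For Cyp7b1 they overlapped, because wild-type-labelled replicate 1 (6.95) was above knockout-labelled replicate 2 (6.68), with exact p = 0.114. Cyp2d9 per marker count was 0.674 times the wild-type-labelled level, with overlap (exact p = 0.114). No share of all tested genes without overlap is given per marker count. The 21.9% above belongs to TMM-scaled CPM, so the count of 6 cannot be weighed against it.

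Markers of other cell types were summed in the same way. In CPM summed over 4 markers each, principal cells were at 317 to 461 in the wild-type-labelled and 227 to 270.4 in the knockout-labelled libraries, podocytes at 328 to 408 and 204 to 302, thick ascending limb at 3167 to 4221 and 2494 to 3093, and endothelium at 183 to 230 and 143 to 177. Called lower were 4 principal cell and 3 podocyte markers, but only 1 each for thick ascending limb and endothelium. Of all tested genes 12.9% were called lower. Intercalated cells (104 to 180.4 and 81.4 to 108), fibroblasts and mural cells (121 to 204 and 184 to 235) and leukocytes (16.8 to 34.6 and 19.7 to 22.6) overlapped between groups, and 3 distal convoluted tubule markers did not (2197 to 2917 and 1227 to 1624). The distal convoluted tubule markers did not move together. On the proximal tubule scale their log2 fold changes were -1.36 for Slc12a3, -1.02 for Trpm6 and 0.11 for Pvalb. The median of all genes on that scale was -0.59. The fibroblast and mural cell sum also held genes that went opposite ways. Col1a1, the collagen I gene, was at 36.3, 19.2 and 54.1 CPM against 109, 76.6, 90.7 and 85.9 CPM and rose 2.48-fold (adjusted p = 0.0292, edgeR), while Pdgfrb, a receptor gene of mural cells, fell by 0.35 on the log2 scale (adjusted p = 0.0168, edgeR). The Col1a1 call was lost on the proximal tubule scale, without the low-count filter, at an adjusted p under 0.01, and when wild-type-labelled replicate 1 or any of knockout-labelled replicates 1, 3 and 4 was left out. Since Cyp2d9, Cyp7b1 and Slco1a1 are also liver genes, 9 liver markers were read. They summed to 51.1 to 61.0 CPM and 15.6 to 81.7 CPM, and their part in the results was not tested. Fga (12.3 to 51.8 CPM), Alb (2.34 to 7.41 CPM) and Ttr (0.201 to 57.6 CPM) made up most of the sums, Fgb reached 2.76 CPM in wild-type-labelled replicate 3, and the other 5 (Apoa1, Apoa2, Ahsg, Cps1 and Mup3) were under 1 CPM in every library. Of 5 adrenal cortex markers only Star reached 1 CPM.

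Of 4 listed receptor genes for estrogens, corticosteroids and progesterone, 1 was called higher and 3 were not called. Of all tested genes 16.8% were called higher, so this count is near that share. The gene was Esr1, for estrogen receptor alpha, which rose 1.34-fold (adjusted p = 0.0185, edgeR). On the proximal tubule scale Esr1 was not called (log2 fold change -0.17, adjusted p = 0.249, edgeR). Nr3c2 was called lower in several of the alternative fits given below.

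Of 21 listed genes of steroid metabolism 16 were tested, and 7 of these rose and 0 fell. Of all tested genes 16.8% were called higher and 12.9% lower. An unadjusted p under 0.05 gave 9 and 0 (22.1% of all tested genes were higher), and DESeq2 7 and 0 (17.9%). On the proximal tubule scale 2 were called higher and 6 lower, where 3.11% and 67.6% of all tested genes were. The median log2 fold change of the 16 was 0.26 with TMM. Hsd3b2, of the 3-beta-hydroxysteroid dehydrogenases, was at 41.5, 42.1 and 44.4 CPM against 118, 152, 120.5 and 101 CPM, a 2.88-fold rise (adjusted p = 0.000105, edgeR). Hsd17b2, which inactivates testosterone and estradiol, rose 1.64-fold, and Srd5a1, a 5-alpha-reductase that makes dihydrotestosterone, rose 1.66-fold. On the proximal tubule scale Hsd17b2 and Srd5a1 were not called (log2 fold changes 0.14 and 0.15), while Hsd3b2 stayed called at 0.94. Cyp19a1, the aromatase gene, had no count in any library, and Hsd17b3 and Cyp17a1 of testosterone synthesis were under 1 CPM throughout.

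Other genes known to be raised by androgen or higher in male mouse kidney mostly rose as well. Of 11 such genes 8 rose and 1 fell, where 16.8% of all tested genes were called higher and 12.9% lower. On the proximal tubule scale 6 were called higher and 2 lower, where 3.11% and 67.6% of all tested genes were. The median log2 fold change of the 11 was 1.42 with TMM. Nudt19 was at 223, 201 and 196 CPM against 638, 819.9, 755 and 732 CPM and rose 3.56-fold (adjusted p = 1.49e-05, edgeR). Odc1, the ornithine decarboxylase gene, was at 138, 129 and 112 CPM against 809, 1118, 878 and 673 CPM, and the P450 gene Cyp4b1 rose 2.67-fold. The gene that fell was Cyp4a12b, singled out after its values were seen, a near copy of Cyp4a12a, which rose. Mean levels were 25.6 and 16.8 CPM for Cyp4a12b and 22.6 and 78.3 CPM for Cyp4a12a (wild-type-labelled, then knockout-labelled). The sequence this pair shares was not measured, so the division of reads between them is uncertain. Cyp2e1, at 475, 868.5 and 550.0 CPM against 762, 1027, 923 and 886 CPM, and Agt were not called.

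Genes known to be higher in female kidney went the other way. All 4 listed fell, where 12.9% of all tested genes were called lower, and the median log2 fold change of the 4 was -2.67. They were also called lower on the proximal tubule scale, where 67.6% of all tested genes were. On that scale the median of the 4 was -3.28, against -0.59 over all genes. The basolateral transporter gene Abcc3 was at 17.9, 12.9 and 23.1 CPM in the wild-type-labelled group and at 4.71, 2.01, 3.26 and 3.31 CPM in the knockout-labelled libraries, and the prolactin receptor gene Prlr at 56.4, 33.0 and 39.3 CPM against 11.8, 7.32, 4.09 and 6.53 CPM. Abcc3 was 5.39-fold, Prlr 5.77-fold and Cyp4a14 19.5-fold lower (largest adjusted p of the 3 = 0.00342, edgeR). Slc7a12, named after its values were seen, was at 26.2, 6.39 and 12.5 CPM against 4.10, 1.51, 1.95 and 0.902 CPM, and it was no longer called when knockout-labelled replicate 2 or 3, or replicate 3 of the wild-type-labelled group, was left out, without the filter on low counts, or at an adjusted p under 0.01. With wild-type-labelled replicate 3 left out, the library with the low Y-linked sum, the 8 members and the 11 other androgen-raised genes again gave 7 and 8 called higher, where 15.9% of all tested genes were.

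**Figure D4:**
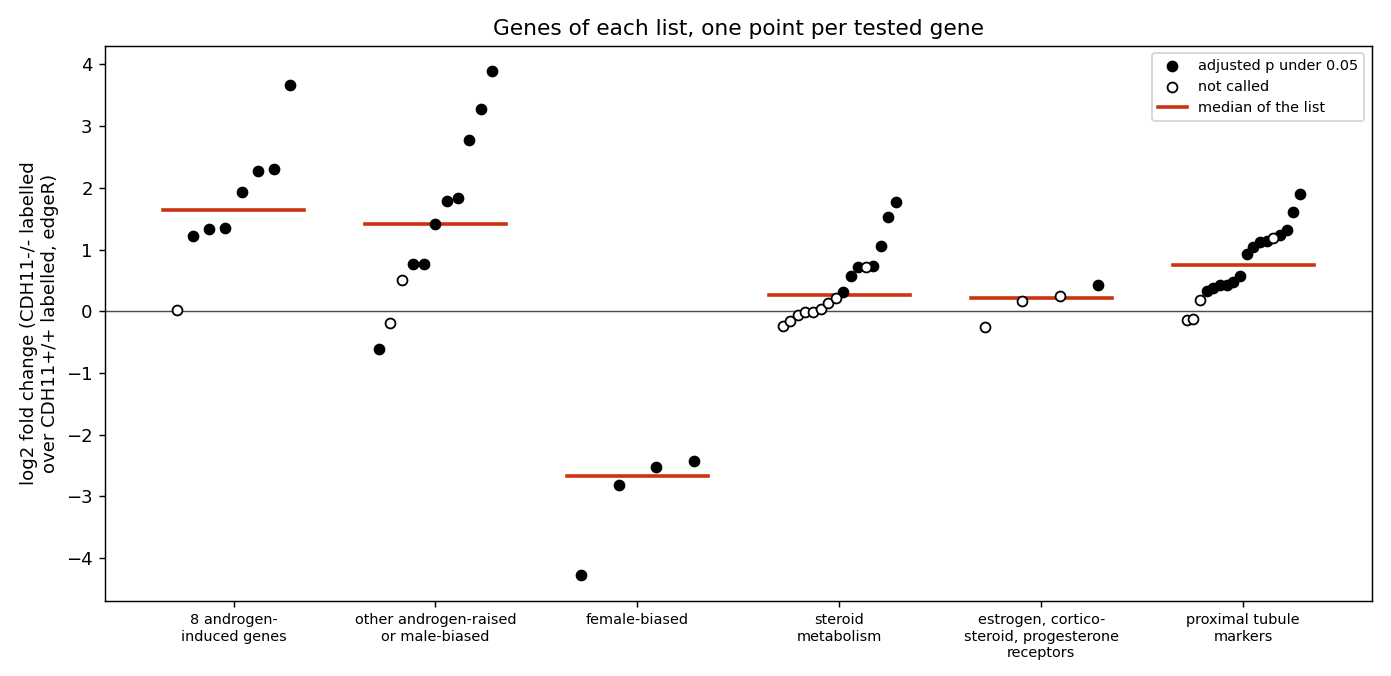
Log2 fold change (CDH11-/- labelled over CDH11+/+ labelled, edgeR) of every tested gene in 6 lists. Filled points had an adjusted p under 0.05, open points did not, and red lines are list medians, 1.64 for the 8 androgen-induced genes and -2.67 for the female-biased genes.

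By their separate values, close relatives of the members did not move as blocks within their families. Sequence shared among the relatives themselves was not measured, so these separate values are uncertain, as said above for Slc22a28. Among the Cyp2j relatives, Cyp2j5 and Cyp2j11 rose 1.70-fold and 1.58-fold, both intervals below that of Cyp2j13, and Cyp2j6 did not change beyond its spread (28.9 ± 1.98 against 30.2 ± 2.07 CPM, SD, n = 3 and 4). Slco1a6 rose 1.82-fold where its neighbour Slco1a1 rose 12.7-fold. In the organic anion transporter cluster Slc22a28 rose 4.54-fold, Slc22a26 2.02-fold and Slc22a19 1.79-fold, and Slc22a29 was not called. On the proximal tubule scale Cyp2j5, Cyp2j11 and Slc22a19 were not called (log2 fold changes 0.17, 0.07 and 0.28), while Slc22a28 and Slco1a6 stayed called at 1.58 and 0.28. In the Cyp2d cluster Cyp2d22 fell from 33.7 ± 5.66 to 12.9 ± 0.533 CPM and Cyp2d26 from 95.5 ± 34.8 to 47.7 ± 5.71 CPM (SD, n = 3 and 4). Cyp2d12 was at 61.3, 39.3 and 93.2 CPM against 115, 85.8, 174 and 107 CPM (log2 fold change 0.90, adjusted p = 0.106, edgeR). Cyp7a1, the liver bile acid enzyme gene related to Cyp7b1, had no count, and Cyp39a1 was not called.

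The genes whose levels followed Kap most closely over the 7 libraries were Fmo5 (Pearson correlation 0.997 on log2 CPM), Fbxo25, Mep1a, Col19a1 and Bsdc1 (each 0.996 or 0.997), out of 12764 protein-coding genes that averaged 1 CPM or more. Fmo5, a flavin monooxygenase gene, went from 25.6 ± 3.58 to 107 ± 11.1 CPM and Mep1a, a brush border metalloprotease gene, from 581 ± 43.2 to 1033 ± 31.2 CPM (SD, n = 3 and 4). These values mostly restate the gap between the groups. With group means subtracted the closest were Gclm, Gid4, Gnai3, Pcmtd2 and Trim23 (0.992 to 0.998), of which Gnai3 was at 75.1 ± 7.95 and 71.0 ± 3.47 CPM and did not differ beyond its spread. Both orders come from 7 points and many genes, and describe these libraries only.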

How the data were processed

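Gene tables of expected counts, rounded to integers, and of normalized values were deposited for 7 libraries. DRAGEN, DESeq2 and mm10 are named without versions in the notes the submitters gave on processing. The annotation, the strand setting and any filter are not given in the sources used here. Per the labels' protocols, libraries were directional. The authors' normalized signal values equal the counts times gene-specific factors, which for the 8 members lay between 0.943 and 1.07 of the library median, and served as an alternative only. All 42256 identifiers matched a symbol in GENCODE M21, on the mm10 assembly.

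Genes were filtered with filterByExpr, scaled by TMM and tested with edgeR 4.0.16 (R 4.3.3) by the robust quasi-likelihood test, 2-sided, without covariates, with Benjamini-Hochberg adjustment over all 17964 genes. Standard errors are the log2 fold change over the root of F, and 95% intervals use the fit's degrees of freedom. The fit was tested on simulated counts. DESeq2 1.42.0, limma 3.58.1, other scalings, filters, pseudocounts of 1 and 0.5 on the normalized values, and leaving out each library were alternatives. Single ratios used exact permutation tests (SciPy 1.17.1). Nothing says whether libraries of a group came from separate litters or days, so p-values measure the spread between these libraries.

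Members and lists were chosen with earlier results of these data known. The text names the 8 members, Cdh11, Xist and the Y-linked genes, up to 3 called genes of each list by adjusted p, relatives of members averaging 1 CPM or more, and the 5 genes most like Kap. Some items that this rule names are not reported here. Others are said to be singled out or are given as values only. Promoter windows are from RefSeq, GRCm38.p6.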

Additional observations from a re-analysis of the deposited data

Results flagged for a closer look

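In groups of 4 libraries, a value was marked when its gap to the next took most of the group's range (Dixon's test at the 95% level, which marks about 1 group in 20 by chance). Of 39 quantities tried in the knockout-labelled group, 3 were marked. Slc22a30 was at 178 CPM in replicate 2, above the other 3 libraries, and the sum of its relatives was 212 CPM in the same library. The endothelial marker sum was 143 CPM in replicate 4, below the other 3.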

How the results depend on the processing

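Over 16 alternatives, 7 members stayed above 0 and called, where 3.11% to 19.5% of all tested genes were called higher, with the largest adjusted p, 0.0492, for Cyp7b1 on the proximal tubule scale, where 1 member was called lower. Cyp2d9 was near 0, at -0.55 on that scale and between -0.13 and 0.18 when each library was left out (log2). Genes called over the whole table numbered 3012 higher and 2315 lower, 2137 to 2879 and 1581 to 2421 when a library was left out, and 1731 and 1053 at an adjusted p under 0.01. At that threshold 7 proximal tubule markers were called higher, 0 of the other androgen-raised genes lower and 0 estrogen, corticosteroid and progesterone receptors higher. The proximal tubule scale was an alternative for lists chosen after seeing the data. On it, higher and lower calls were 0 and 2 for estrogen, corticosteroid and progesterone receptors, 2 and 6 for steroid metabolism and 6 and 2 for other androgen-raised genes. Of all tested genes 3.11% were called higher and 67.6% lower there, and all genes shifted by the amount given above. The proximal tubule markers set that scale by their own sum, so their 6 higher and 4 lower calls cannot test their rise. Of the estrogen, corticosteroid and progesterone receptors 1 (Nr3c2) was called lower by relative log expression or upper-quartile scaling, without the filter, at a mean of at least 1 CPM, by DESeq2, limma-voom or limma-trend, and 0 to 1 when a library was left out; the causes were not tested. Per proximal tubule marker count, directions held with Lrp2 and Cubn alone and with each library left out. No paired analysis was possible because the labels give no replicate numbers shared by the groups. Expected counts of 1035 or more per member and library leave little counting error; the 7 libraries limit precision.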

Other observations

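Ttr, the transthyretin gene, was read as a liver marker and was uneven within both groups, at 18.0, 18.5 and 0.289 CPM in the wild-type-labelled group and at 0.201, 57.6, 0.671 and 0.276 CPM in the knockout-labelled group, each in replicate order. It was singled out after its values were seen. The other liver markers did not share this split, with Alb between 2.34 and 7.41 CPM in all libraries. Xist was at 0.198, 0.936 and 0.924 CPM in the wild-type-labelled and at 0.201, 0.126, 0.231 and 0.288 CPM in the knockout-labelled libraries.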
